A study of Mus musculus with 8 samples.

Results

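The nuclear-encoded genes of the mitochondrial respiratory chain were examined in single nucleus RNA-seq of cultured mouse pancreatic islets. Members were all genes of the deposited table whose symbols start with Nduf, Uqcr, Atp5, Cox4, Cox5, Cox6, Cox7, Cox8, Sdha, Sdhb, Sdhc or Sdhd, which gave 93 of 17362 genes. They comprised 37 subunits of complex I, 4 of complex II, 8 of complex III, 14 of complex IV, 18 of complex V (ATP synthase) and 12 assembly factors. Ndufa4 was placed with complex IV. Atp5o of complex V has a second row in the table, Atp5o.1, which was counted as a member.

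Islets came from wild type (WT) mice and from mice with a whole-body knock-in that puts an alanine in place of a serine of Med14, the scaffold subunit of Mediator (Med14 S983A, here also the mutant). Nuclei came from about 100 islets per sample. Islets were kept without treatment (CON), given forskolin (FSK), a direct activator of adenylyl cyclase, or given Exendin-4 (Ex-4; 10 nM for 16 h), a peptide that activates the GLP-1 receptor. The FSK dose and duration are not given in the labels, and the study's text gives 16 h for FSK in islets. The age of the mice is not given in the labels. Each of the 6 conditions was represented by 1 pooled column for each of 9 cell types, and each of 8 sublibraries held nuclei of all 6 conditions and is not a replicate. There were no replicates, so no test between conditions was run, and condition, barcode well and islet preparation cannot be told apart. All intervals given are 95% intervals that cover counting error only.

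Levels are counts per 10000 counts of the column (CP10K). Column totals ran from 1915006 to 3094377 counts in beta cells, 269394 to 810127 in alpha cells and 362410 to 631433 in delta cells. Because columns are scaled to a common total, less RNA per nucleus and a shift in the makeup of the pool cannot be told apart. The cell labels were checked against marker genes. Summed over 6 beta cell markers, the level was 42.2 to 62.0 CP10K in the beta columns, 12.3 to 33.5 in the alpha columns and 5.40 to 12.03 in the delta columns. The 4 alpha cell markers summed to 45.2 to 137 in alpha and 4.58 to 9.05 in beta columns, and the 4 delta cell markers to 4.36 to 9.73 in delta and 0.0194 to 0.324 in beta columns. In beta columns the beta cell markers were highest in WT CON and lowest in mutant CON. Macrophage markers (3 genes) summed to at most 0.0266 in beta columns and endothelial markers (3 genes) to at most 0.156. Of 6 acinar markers 1 was in the table, at no more than 0.00868 in beta columns.

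As background, the respiratory chain passes electrons from NADH (complex I) and succinate (complex II) through complexes III and IV to oxygen, and the proton gradient so built drives ATP synthase. In beta cells the ATP made in this way closes KATP channels and triggers insulin release. Most subunits are encoded in the nucleus, and a small set in mitochondrial DNA. Nuclear RNA is rich in unspliced transcripts, so the reads of a gene in nuclei come largely from introns. Gene span, the distance from the start to the end of a gene with its introns, is therefore given beside some of the levels. Levels that are not divided by span, as in rankings by mean level and in lists of paralogs, do not compare expression between genes.

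Promoter windows are shown for 6 members to which the results return, since genes of the respiratory chain are known for binding sites of NRF1, GABPA, YY1 and ESRRA, and CREB is the factor that cAMP activates. The windows run from 250 bases before to 50 after the annotated start (RefSeq, GRCm38.p6), and 78 of 93 members had one. Ndufs4 lies at chr13:114388045-114388344 (minus strand), Ndufb8 at chr19:44555393-44555692 (minus), Sdhb at chr4:140961021-140961320 (plus), Uqcrc1 at chr9:108936398-108936697 (plus), Atp5l at chr9:44920693-44920992 (minus) and Ndufa10 at chr1:92473709-92474008 (minus). Capitals mark the letters searched on either strand: GCATGCGC for NRF1, CCGGAAG for GABPA, AAGATGGC for YY1, AAGGTCA for ESRRA and TGACGTCA for CREB.
Ndufs4: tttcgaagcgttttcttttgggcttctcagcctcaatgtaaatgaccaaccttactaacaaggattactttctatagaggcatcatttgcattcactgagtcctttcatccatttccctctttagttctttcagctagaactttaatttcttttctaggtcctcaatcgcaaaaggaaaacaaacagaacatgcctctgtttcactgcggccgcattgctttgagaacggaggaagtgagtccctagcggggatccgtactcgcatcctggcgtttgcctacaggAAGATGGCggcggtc
Ndufb8: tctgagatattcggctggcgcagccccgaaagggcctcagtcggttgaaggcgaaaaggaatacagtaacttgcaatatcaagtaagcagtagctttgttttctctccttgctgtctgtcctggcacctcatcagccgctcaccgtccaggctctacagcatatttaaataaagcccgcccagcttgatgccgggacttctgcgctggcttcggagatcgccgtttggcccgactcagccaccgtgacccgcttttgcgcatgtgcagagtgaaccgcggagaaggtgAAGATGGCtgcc
Sdhb: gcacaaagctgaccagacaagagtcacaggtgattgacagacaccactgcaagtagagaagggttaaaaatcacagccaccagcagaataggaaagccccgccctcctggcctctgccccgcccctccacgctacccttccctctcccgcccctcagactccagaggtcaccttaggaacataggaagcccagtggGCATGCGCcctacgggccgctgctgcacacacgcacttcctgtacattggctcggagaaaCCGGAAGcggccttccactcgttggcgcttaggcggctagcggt
Uqcrc1: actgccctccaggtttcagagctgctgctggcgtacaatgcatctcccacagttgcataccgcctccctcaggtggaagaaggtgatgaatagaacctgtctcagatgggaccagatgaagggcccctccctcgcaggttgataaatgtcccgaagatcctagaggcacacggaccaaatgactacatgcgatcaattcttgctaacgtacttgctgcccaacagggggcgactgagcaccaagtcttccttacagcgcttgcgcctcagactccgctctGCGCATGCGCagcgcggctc
Atp5l: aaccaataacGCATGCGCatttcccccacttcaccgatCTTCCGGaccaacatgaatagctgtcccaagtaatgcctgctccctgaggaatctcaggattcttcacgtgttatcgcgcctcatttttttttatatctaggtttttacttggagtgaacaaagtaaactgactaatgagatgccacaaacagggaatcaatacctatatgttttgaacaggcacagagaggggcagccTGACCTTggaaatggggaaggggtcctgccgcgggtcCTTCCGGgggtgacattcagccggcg
Ndufa10: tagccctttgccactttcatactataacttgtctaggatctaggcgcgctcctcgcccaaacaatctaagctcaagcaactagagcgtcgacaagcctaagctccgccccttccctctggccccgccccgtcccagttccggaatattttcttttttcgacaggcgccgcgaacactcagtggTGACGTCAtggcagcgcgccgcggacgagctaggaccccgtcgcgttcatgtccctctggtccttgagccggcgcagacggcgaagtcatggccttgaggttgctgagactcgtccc

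The YY1 letters stood near the end of the Ndufs4 and Ndufb8 windows, Sdhb held the NRF1 and GABPA letters, and Uqcrc1 held the NRF1 letters on both strands in overlapping positions. Atp5l held the NRF1 and ESRRA letters and 2 copies of the GABPA letters, and Ndufa10 held the CREB letters, which read the same on both strands. Over the 78 members with a window, the NRF1 letters were present in 12 (15.4%), against 3.05% of 27025 genes with a window and 6.64% of the 7349 of these that passed the count filter in beta cells. The corresponding shares were 28.2%, 9.93% and 21.2% for GABPA, 14.1%, 3.19% and 6.04% for YY1, 10.3%, 5.38% and 3.61% for ESRRA, and 5.13%, 2.03% and 3.78% for CREB. The 4 members with the CREB letters were Ndufa10, Ndufa11, Ndufb2 and Uqcrfs1. A match is a description of letters in these windows only.

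Summed over all 93 members, WT beta cells had 12.1 CP10K (11.7 to 12.5) in CON, 10.02 (9.67 to 10.4) in FSK and 14.0 (13.6 to 14.4) in Ex-4. In Med14 S983A beta cells it was 11.7 (11.2 to 12.2) in CON, 12.8 (12.3 to 13.3) in FSK and 11.6 (11.1 to 12.1) in Ex-4. The WT FSK column was the lowest and the WT Ex-4 column the highest of the 6, and the untreated columns of the 2 genotypes had overlapping intervals. The log2 ratio of the sums was 0.21 (0.15 to 0.28) for WT Ex-4 against WT CON, and turned to -0.25 once a trend on gene length was removed. For WT FSK against WT CON it was -0.27 (-0.34 to -0.20), and turned to 0.19 without the length trend and to 0.011 with the median ratio of all genes set to 0. For mutant CON against WT CON it was -0.05 (-0.12 to 0.03), and 0.086 when mitochondrial genes and those linked to ribosomal RNA were left out of the scaling. Against mutant CON, it was -0.01 (-0.10 to 0.07) for Ex-4 and 0.13 (0.05 to 0.21) for FSK, the latter turning to -0.014 under the same rescaling. WT Ex-4, WT FSK and mutant CON share the WT CON column, and mutant Ex-4 and mutant FSK share the mutant CON column.

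**Figure D1:**
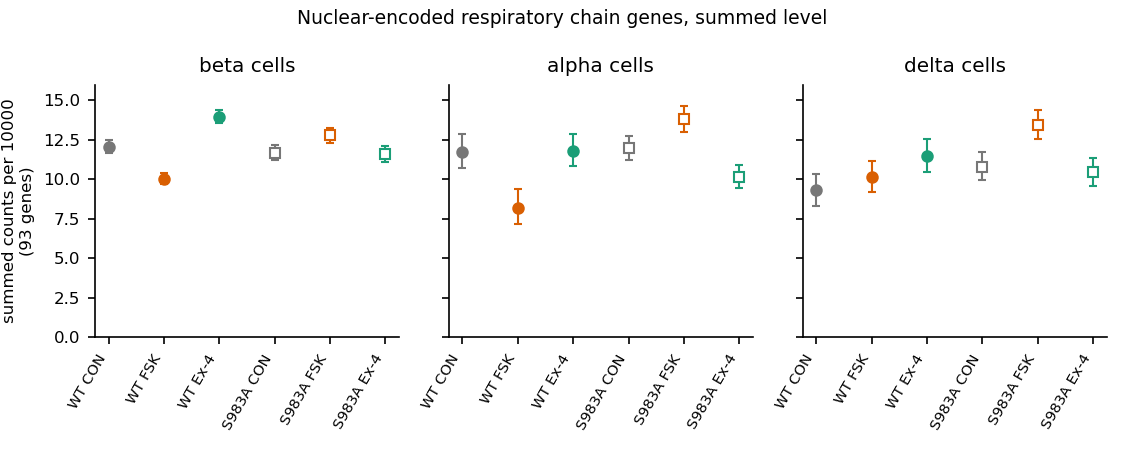
Summed level of the 93 nuclear-encoded respiratory chain genes (y axis, counts per 10000) in the 6 conditions (x axis) for beta, alpha and delta cell nuclei. Points are single pooled columns (filled, WT; open, Med14 S983A; grey, CON; orange, FSK; green, Ex-4) and bars are 95% counting intervals; in WT beta cells the sum ran from 10.0 in FSK to 14.0 in Ex-4, and both differences from CON change sign once a trend on gene length is removed.

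Members were low in nuclei: 37 of 93 passed a filter of a mean of 20 counts over the 6 beta columns, 8 in alpha and 4 in delta columns. The filter keeps genes that are high in some columns only, so the members that passed do not stand for all members. Members could also be listed at 0 in every cell type of a condition: 1 in WT CON, 3 in WT FSK, 11 in WT Ex-4, 8 in mutant CON, 2 in mutant FSK and 24 in mutant Ex-4, where no listed gene had under 10 counts over all cell types. Such a 0 was not read as a limit on the level. Over the 68 members with counts in all 6 beta columns, the log2 ratios of the sums were 0.22, -0.24, -0.06, 0.06 and 0.13 in the order above (WT Ex-4, WT FSK and mutant CON against WT CON, then mutant Ex-4 and mutant FSK against mutant CON).

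A gene was called higher or lower past a 1.5-fold ratio (0.58 on the log2 scale), with 0.5 counts added to each column. For WT Ex-4 against WT CON, 10 of the 37 members were higher and 2 lower, where 25.4% of the 9332 genes that passed were higher and 12.8% lower. For WT FSK against WT CON, 0 were higher and 12 lower, beside 7.18% and 30.3% of all genes. For mutant CON against WT CON, 6 were higher and 9 lower, beside 23.8% and 22.9%. For mutant Ex-4 against mutant CON, 1 was higher and 3 lower, beside 3.33% and 4.82%. For mutant FSK against mutant CON, 12 were higher and 9 lower, beside 22.8% and 30.1%. The median log2 ratio of the members and of all genes was 0.27 and 0.12 for WT Ex-4, -0.27 and -0.28 for WT FSK, -0.05 and -0.02 for mutant CON, 0.15 and -0.04 for mutant Ex-4, and 0.20 and -0.09 for mutant FSK. The members' shares were thus near the background in most comparisons, and the members differed among themselves in direction. Of the calls, the 2 counting intervals of the levels did not overlap for 8 of 12 members in WT Ex-4, 3 of 12 in WT FSK, 8 of 15 in mutant CON, 0 of 4 in mutant Ex-4 and 11 of 21 in mutant FSK. The same share over all genes was not computed, so these counts have no background to be read against.

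Complex I oxidises NADH, and its 37 subunits summed to 4.77 CP10K in WT CON, 4.12 in WT FSK, 5.83 in WT Ex-4, 5.06 in mutant CON, 5.04 in mutant FSK and 4.88 in mutant Ex-4 beta cells. The log2 ratio was 0.29 (0.19 to 0.39) for WT Ex-4 and -0.21 (-0.32 to -0.10) for WT FSK, with intervals reaching both sides of 0 in the other 3 comparisons. The log2 ratio under FSK of the 7 core subunits, which carry the redox centres, was -0.53 (-0.73 to -0.32) in WT and -0.28 (-0.50 to -0.06) in the mutant, beside -0.08 (-0.21 to 0.05) and 0.13 (-0.03 to 0.28) for the 30 accessory subunits, and the difference between these groups was not tested. The accessory sum holds Ndufs4, a gene of 103 kb with a mean of 0.832 CP10K over the beta columns. As given below, Ndufs4 was higher under FSK in both genotypes. The accessory sums were 3.21 CP10K in WT CON and 3.03 in WT FSK, and 3.22 in mutant CON and 3.52 in mutant FSK. With the Ndufs4 levels given below taken out, the accessory sums are also lower in FSK than in CON in both genotypes. No interval was computed for that remainder, so how far it differs from the core was not tested. Without Ndufv2, the core sums were 1.25 and 0.866 CP10K in WT CON and FSK, and 1.69 and 1.21 in mutant CON and FSK. The core sum was higher in mutant CON than in WT CON, at 1.84 against 1.56 CP10K, a log2 ratio of 0.24 (0.03 to 0.44).

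Ndufv3, an accessory subunit of the NADH-oxidising module, ran at 0.179, 0.0937 and 0.302 CP10K in WT CON, FSK and Ex-4 and at 0.390, 0.143 and 0.272 in the same mutant columns. Ndufv1, the flavin-binding core subunit, ran at 0.116, 0.0549 and 0.158 in WT and at 0.244, 0.0955 and 0.157 in the mutant. Both were lowest in the FSK column of each genotype and highest in mutant CON. The log2 ratios of Ndufv3 were 0.75 (0.25 to 1.27) for WT Ex-4, -0.92 (-1.64 to -0.26) for WT FSK, 1.12 (0.60 to 1.65) for mutant CON, -0.52 (-1.06 to 0.01) for mutant Ex-4 and -1.43 (-2.08 to -0.83) for mutant FSK.

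Ndufs4, an accessory subunit whose loss is known to cause a Leigh-like disease in mice, showed the other pattern. This gene (chr13:114421982-114524794, GRCm39, minus strand, 103 kb), whose promoter holds the YY1 letters, stood at 0.886 CP10K in WT CON, 1.29 in WT FSK, 0.634 in WT Ex-4, 0.509 in mutant CON, 1.15 in mutant FSK and 0.522 in mutant Ex-4. The FSK columns were the highest of both genotypes. The log2 ratio was -0.48 (-0.76 to -0.21) for WT Ex-4, 0.54 (0.31 to 0.77) for WT FSK, -0.80 (-1.15 to -0.46) for mutant CON, 0.04 (-0.38 to 0.45) for mutant Ex-4 and 1.18 (0.84 to 1.53) for mutant FSK. Ndufv2, the iron-sulfur partner of Ndufv1, had a log2 ratio of -0.55 (-1.04 to -0.08) in WT Ex-4, -1.05 (-1.72 to -0.45) in mutant CON and 1.04 (0.41 to 1.73) in mutant FSK. Ndufs1 and Ndufa10 stayed within 1.5-fold in all 5 comparisons, with log2 ratios of -0.16 to 0.17 for Ndufs1, the largest core subunit, and -0.05 to 0.37 for Ndufa10, the accessory subunit whose promoter window holds the CREB letters.

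Among the other subunits of complex I, Ndufb8 of the membrane arm, with the YY1 letters and a span of 6.93 kb, had 20, 9 and 52 counts in WT CON, FSK and Ex-4 and 19, 14 and 17 in the mutant. Its log2 ratio for WT Ex-4 was 1.37 (0.62 to 2.22). For mutant Ex-4 against mutant CON, Ndufa9 had the largest log2 ratio of the members that passed the filter, 0.92 (0.14 to 1.77), and Ndufs3 one of 0.39 (-0.26 to 1.06). Ndufc2 had the smallest of these, -0.85 (-1.97 to 0.15), and 0.54 (-0.18 to 1.29) for WT FSK. The counting intervals of the levels overlapped for Ndufa9, Ndufs3 and Ndufc2 in these comparisons, and did not overlap for Ndufb8 between WT CON and WT Ex-4.

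Complex II, succinate dehydrogenase, is also an enzyme of the TCA cycle and has no subunit from mitochondrial DNA. Its 4 subunits summed to 1.29 CP10K in WT CON, 1.07 in WT FSK, 1.51 in WT Ex-4, 1.08 in mutant CON, 1.36 in mutant FSK and 1.24 in mutant Ex-4. The log2 ratio under FSK was -0.28 (-0.49 to -0.06) in WT and 0.34 (0.08 to 0.60) in the mutant. Sdha, the flavoprotein, ran at 0.614, 0.446 and 0.651 in WT CON, FSK and Ex-4 and at 0.483, 0.603 and 0.522 in the mutant, so that the WT FSK column was the lowest. Sdhb, the iron-sulfur subunit with NRF1 and GABPA letters, was lowest in WT CON at 0.325 and reached 0.507 in WT Ex-4 and 0.512 in mutant Ex-4, with a log2 ratio of 0.64 (0.26 to 1.02) for WT Ex-4. Sdhc, a membrane anchor, was lowest in mutant CON at 0.130 against 0.236 in WT CON. Sdhd, the other anchor, did not pass the filter and had 36, 13 and 30 counts in WT CON, FSK and Ex-4 and 12, 16 and 9 in the mutant.

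Complex III, which passes electrons from ubiquinol to cytochrome c, summed to 0.747 CP10K in WT CON, 0.608 in WT FSK, 0.808 in WT Ex-4, 0.644 in mutant CON, 0.851 in mutant FSK and 0.595 in mutant Ex-4. Its 2 core proteins, Uqcrc1 and Uqcrc2, had different orders of the columns. Uqcrc1, with the NRF1 letters, was lowest in WT FSK (0.0808) and highest in WT Ex-4 (0.248), with 0.153 in WT CON and 0.135 to 0.178 in the mutant columns. Uqcrc2 was at 0.425, 0.427 and 0.325 in WT CON, FSK and Ex-4, and at 0.270, 0.521 and 0.261 in the same mutant columns, with a log2 ratio of 0.94 (0.47 to 1.45) for mutant FSK. Of the smaller subunits, Uqcrb had 6, 2 and 28 counts in WT CON, FSK and Ex-4 and 8, 6 and 11 in the mutant. Uqcrh ranged from 0.0485 to 0.0992, and Uqcrq from 0.0226 to 0.0675 CP10K where it was listed above 0.

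Complex IV, cytochrome c oxidase, had the lowest log2 ratio of the 5 complexes under FSK in WT. Its 14 subunits summed to 1.07 CP10K (0.955 to 1.19) without treatment and 0.578 (0.497 to 0.670) with FSK in WT, to 1.30 (1.17 to 1.43) in WT Ex-4, 1.14 (0.997 to 1.30) in mutant CON, 0.981 (0.857 to 1.12) in mutant FSK and 1.07 (0.924 to 1.22) in mutant Ex-4. The WT FSK interval overlapped with none of the other 5. The log2 ratio was -0.89 (-1.16 to -0.62) for WT FSK, and -0.94 (-1.24 to -0.65) over the 10 subunits with counts in all conditions. In the mutant the FSK ratio was -0.22 (-0.49 to 0.05). The complex IV genes have a median span of 9.66 kb, beside 9.23, 6.02 and 7.72 kb for complexes I, III and V. Among all genes under 10 kb that passed the filter, the median log2 ratio for WT FSK was -0.87, and 65.7% were lower. The complex IV value is thus near the median of short genes, but its sum also holds Cox7a2l, a gene of 58.8 kb. For all genes over 30 kb the median was -0.12. Complexes III and V, with shorter median spans, went from 0.747 to 0.608 and from 2.47 to 2.17 CP10K between WT CON and WT FSK. The part of span in the complex IV value was not tested. Cox7a2l went from 0.388 in WT CON to 0.220 in WT FSK, a log2 ratio of -0.82 (-1.27 to -0.38). It has been described as joining complexes III and IV into supercomplexes, and whether it does so in these mice was not examined. Cox7c was the other subunit past the fold there, with a log2 ratio of -0.61 (-1.57 to 0.29). Of those that did not pass the filter, Cox7b had 26 counts in WT CON and 10 in WT FSK, and Cox6b1 had 19 and 8.

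Paralogs of complex IV and V subunits are listed separately. Cox4i1, the general form of subunit 4, did not pass the filter but had 6, 4 and 32 counts in WT CON, FSK and Ex-4 and 19, 10 and 16 in mutant CON, FSK and Ex-4 beta cells. Cox4i2, Cox7a1, Cox8b and Cox8c have no row in the deposited table. Cox6a1, the widely expressed form, ran from 4 to 10 counts in 5 beta columns and Cox6a2, the form known from heart and muscle, from 3 to 21 in 5 columns. In alpha and delta columns Cox6a2 had at most 3 counts. Cox7a2 ran from 0.0323 to 0.0825 and Cox8a from 0.0208 to 0.104 CP10K in beta cells. Cox7b2 had 9 counts in WT CON beta cells and was listed at 0 in the other 5 beta columns. The 3 genes that encode the same c ring protein of ATP synthase, Atp5g1, Atp5g2 and Atp5g3, had 11, 32 and 15 counts in WT CON, and their sum ran from 0.149 CP10K in WT FSK to 0.265 in WT Ex-4 and in mutant FSK.

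ATP synthase (complex V) summed to 2.47 CP10K in WT CON, 2.17 in WT FSK, 3.01 in WT Ex-4, 2.61 in mutant CON, 2.91 in mutant FSK and 2.55 in mutant Ex-4, with a log2 ratio of 0.28 (0.14 to 0.43) for WT Ex-4 and -0.19 (-0.34 to -0.04) for WT FSK. Atp5b, the catalytic beta subunit, had the highest level per kb of any member with a span, 0.0461 CP10K per kb, followed by Cox6a2 (0.0393) and Atp5a1, the alpha subunit (0.0392). Cox6a2 did not pass the filter: it had a mean of 9.17 counts on a span of 0.953 kb and was listed at 0 in mutant FSK. Atp5b ran at 0.256, 0.252 and 0.429 CP10K in WT CON, FSK and Ex-4 and at 0.338, 0.2996 and 0.397 in the mutant. Atp5a1 ran at 0.359, 0.297 and 0.523 in WT and at 0.556, 0.295 and 0.418 in the mutant, so that both were higher in WT Ex-4 than in WT CON, with log2 ratios of 0.74 (0.33 to 1.18) and 0.54 (0.18 to 0.91). Atp5d, the delta subunit of the rotor, had the largest log2 ratio of the 37 members that passed the filter in WT Ex-4, 1.70 (0.84 to 2.71), and in mutant CON, 1.34 (0.34 to 2.43), on 14 counts in WT CON against 46 and 23.

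Atp5c1, the gamma subunit of the same rotor but from a gene of 24.5 kb, did not share this: it ran at 0.700, 0.776 and 0.604 CP10K in WT CON, FSK and Ex-4 and at 0.504, 0.894 and 0.480 in the mutant. The mutant FSK column was the highest, with a log2 ratio of 0.82 (0.47 to 1.19) against mutant CON. Atp5l and Atp5pb, subunits of the membrane part and of the peripheral stalk, also had higher levels in mutant FSK, with log2 ratios of 1.16 (0.48 to 1.92) and 1.11 (0.41 to 1.89). Atp5j2 and Atp5h were among the 3 members with the smallest log2 ratio in WT FSK of those that passed, -1.25 (-2.29 to -0.33) and -1.07 (-2.36 to 0.04), on 14 and 10 counts.

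**Figure D2:**
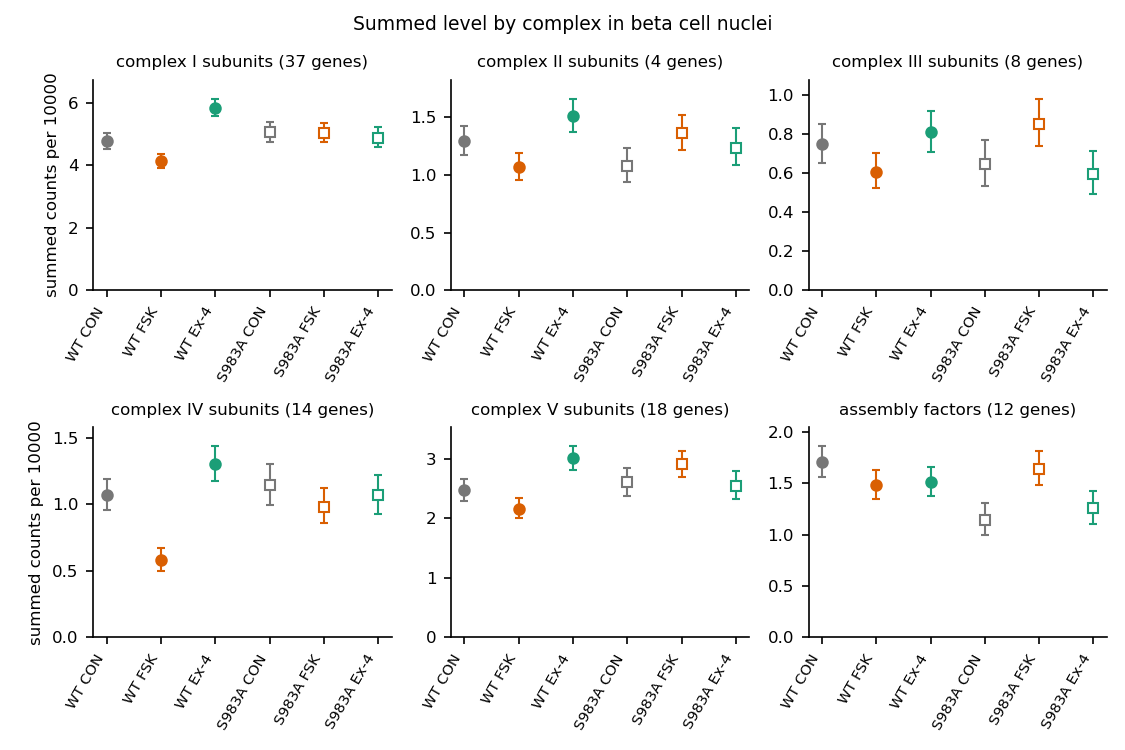
Summed level (y axes, counts per 10000) of the subunits of each complex and of the assembly factors in the 6 beta cell columns (x axes; filled, WT; open, Med14 S983A). Bars are 95% counting intervals; the complex IV sum in WT FSK, 0.578, lies below the other 5 columns, which run from 0.981 to 1.30.

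The 12 assembly factors within the rule help to build complexes I and II without being part of them. They summed to 1.71 CP10K in WT CON, 1.48 in WT FSK, 1.51 in WT Ex-4, 1.14 in mutant CON, 1.64 in mutant FSK and 1.26 in mutant Ex-4. The log2 ratio was -0.58 (-0.81 to -0.35) for mutant CON against WT CON and 0.52 (0.28 to 0.77) for mutant FSK against mutant CON. Ndufaf2, which binds a late intermediate of complex I and has the longest span of the members that passed (chr13:108139249-108295189, minus strand, 156 kb), ran at 0.428, 0.620 and 0.255 in WT CON, FSK and Ex-4 and at 0.156, 0.443 and 0.183 in the mutant. Its log2 ratio was -1.44 (-2.08 to -0.88) for mutant CON and 1.49 (0.91 to 2.15) for mutant FSK, the most extreme of the members that passed in each. Sdhaf3 (87.0 kb) had the smallest log2 ratio of the members that passed in WT Ex-4, -0.81 (-1.40 to -0.26), and Ndufaf5 one of -0.77 (-1.81 to 0.18) in mutant Ex-4. Sdhaf2 stayed between 0.145 and 0.242 CP10K, Sdhaf4 had 0 to 13 counts and Sdhaf1 had 1 count in 1 column.

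**Figure D3:**
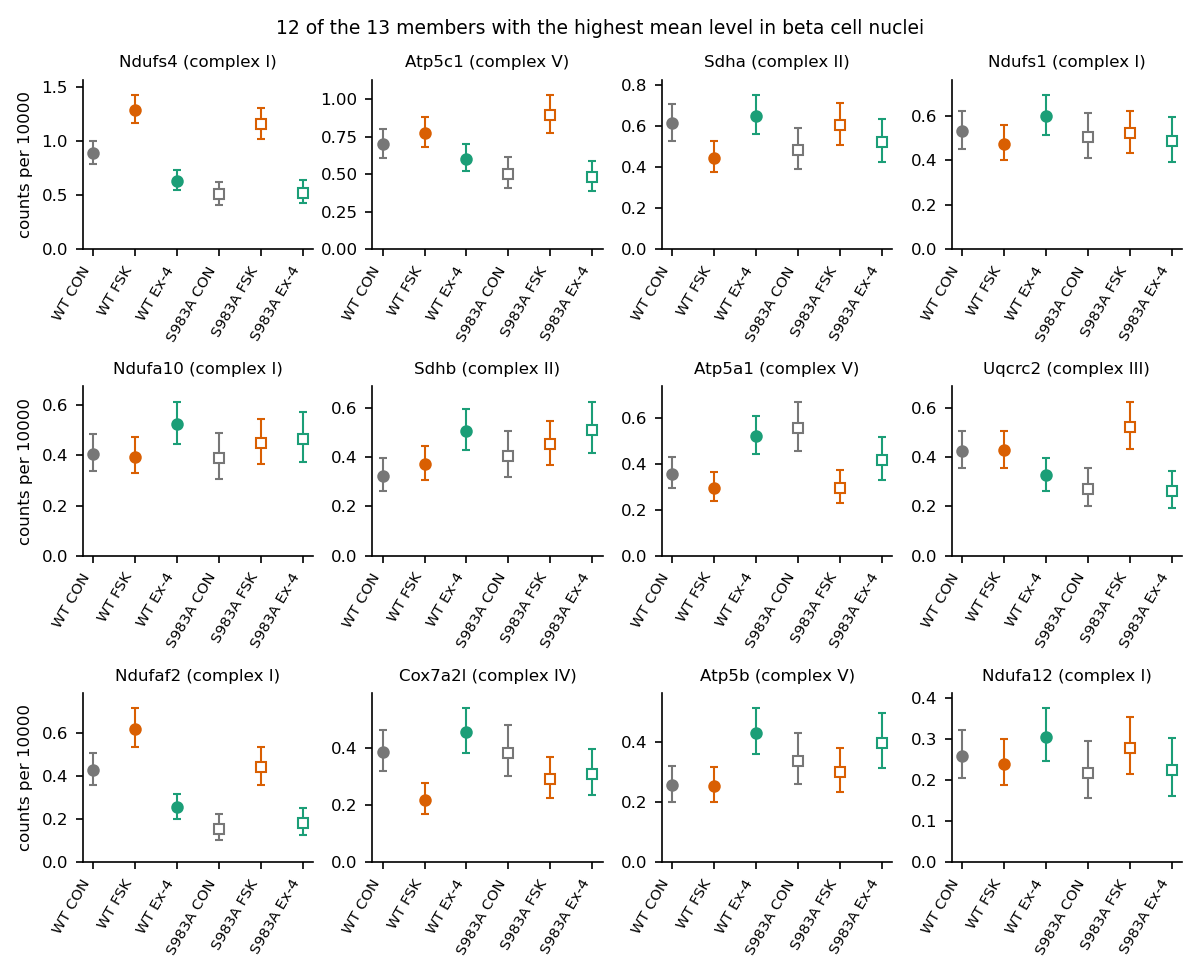
Level (y axes, counts per 10000) of 12 of the 13 members with the highest mean over the 6 beta columns, by condition (x axes; filled, WT; open, Med14 S983A), with 95% counting intervals. Ndufs4 and Ndufaf2 were highest in the FSK columns of each genotype, and Atp5a1 was lowest there.

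The direction of the members went with gene span, which the choice of members did not use. Of the 91 members with a span, 50 were under 10 kb, 32 from 10 to 30 kb and 9 over 30 kb. In WT beta cells the short members summed to 2.51 CP10K in CON, 1.46 in FSK and 3.65 in Ex-4, and in the mutant to 3.21, 2.63 and 3.07. The long members summed to 3.31, 3.55 and 3.01 in WT and to 2.35, 3.56 and 2.33 in the mutant. The log2 ratio for WT Ex-4 was 0.54 (0.41 to 0.68) for short, 0.22 (0.13 to 0.31) for intermediate and -0.14 (-0.27 to 0.00) for long members. For WT FSK the values were -0.78 (-0.95 to -0.61), -0.30 (-0.40 to -0.20) and 0.10 (-0.02 to 0.23). For mutant CON they were 0.36 (0.20 to 0.51), -0.04 (-0.15 to 0.06) and -0.49 (-0.66 to -0.33). For mutant FSK they were -0.29 (-0.45 to -0.12), 0.12 (0.01 to 0.24) and 0.60 (0.43 to 0.77), and for mutant Ex-4 they were -0.07 (-0.23 to 0.10), 0.02 (-0.09 to 0.14) and -0.01 (-0.21 to 0.18). Most members listed at 0 in every cell type of mutant Ex-4 are short, and the short sum was not recomputed without them. Without Ndufs4 the long members stood at -0.03 in WT Ex-4, -0.10 in WT FSK, -0.39 in mutant CON and 0.39 in mutant FSK.

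All genes that passed the filter showed a like order. Their median log2 ratio for genes under 10 kb and over 30 kb was 0.96 and -0.16 in WT Ex-4, -0.87 and -0.12 in WT FSK, 0.94 and -0.33 in mutant CON, -0.08 and -0.02 in mutant Ex-4, and -1.03 and 0.23 in mutant FSK. Across the 37 members, Spearman's rank correlation between span and log2 ratio was -0.70, 0.46, -0.70, -0.08 and 0.57 in that order, and across 9118 genes it was -0.64, 0.41, -0.58, 0.10 and 0.52; genes share the same columns and are not independent. With a smooth trend on span removed, the median of the 37 members was -0.18 for WT Ex-4 (10 above 0, 27 below), 0.17 for WT FSK (23 and 14), -0.38 for mutant CON (8 and 29), 0.21 for mutant Ex-4 (26 and 11) and 0.56 for mutant FSK (30 and 7). In the median, and with no test, the members lay below genes of like span in WT Ex-4 and mutant CON and above them in WT FSK, mutant Ex-4 and mutant FSK.

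**Figure D4:**
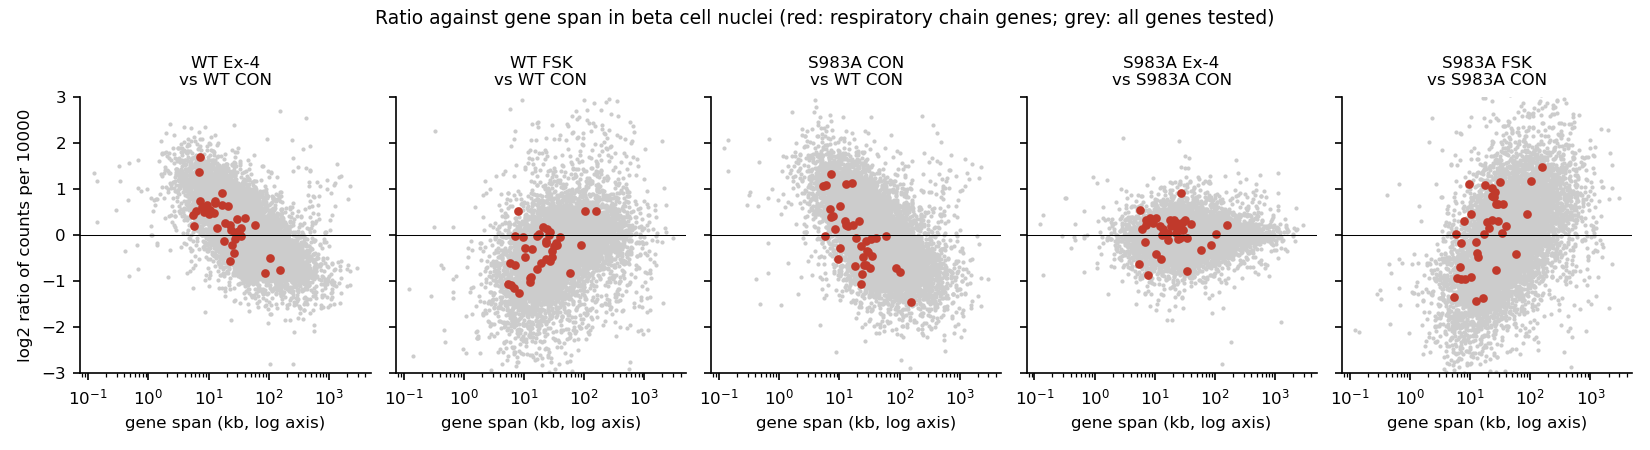
Log2 ratio of counts per 10000 (y axis) against gene span (x axis, kb, log scale) in beta cell nuclei for the 5 comparisons. Red points are the 37 members that passed the filter and grey points all 9118 genes that passed and have a span; 108 genes lie beyond the y axis limits in at least 1 comparison. The rank correlation across members ran from -0.70 to 0.57.

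**Figure D5:**
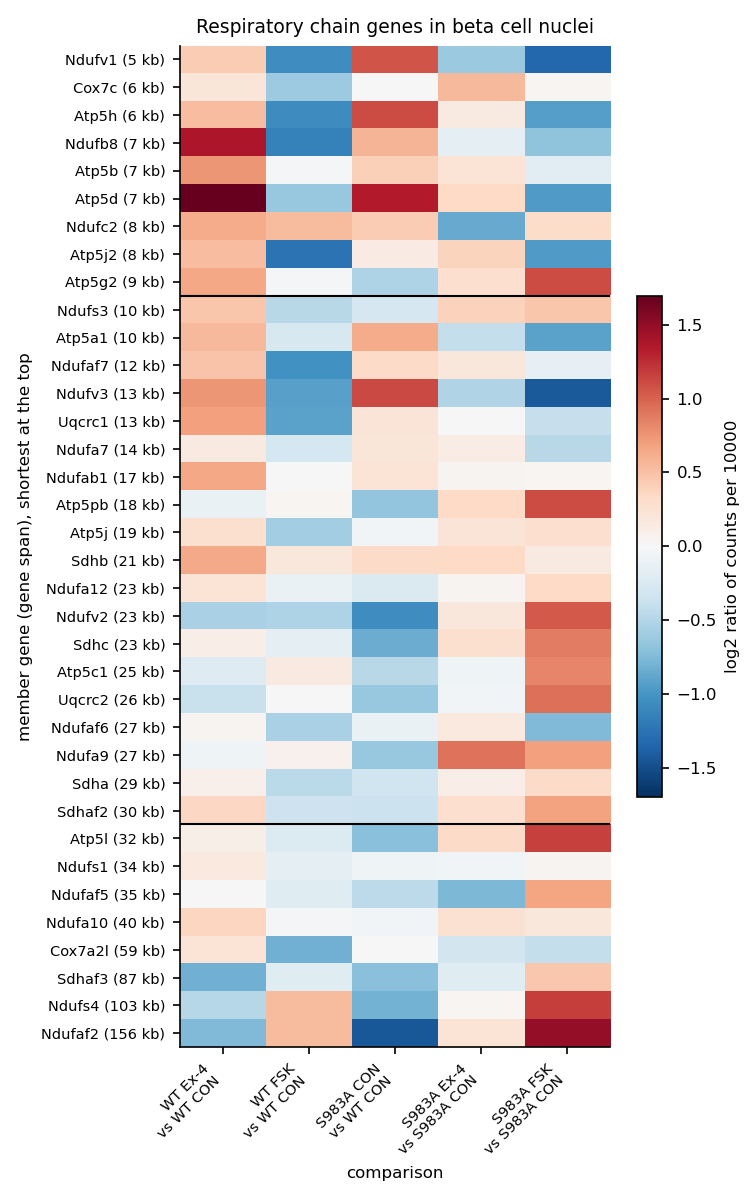
Log2 ratio of counts per 10000 (colour) of 36 of the 37 members that passed the filter (rows, ordered by gene span with the shortest at the top; lines at 10 and 30 kb) in the 5 beta cell comparisons (columns). The extremes are Atp5d at 1.70 in WT Ex-4 and Ndufaf2 at -1.44 in mutant CON and 1.49 in mutant FSK.

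The makeup of the beta columns moved along with these values. Ribosomal RNA linked and mitochondrial genes took 3.47% of counts in WT CON, 2.88% in WT FSK, 9.24% in WT Ex-4, 11.98% in mutant CON, 2.77% in mutant FSK and 14.9% in mutant Ex-4. Their part in the members' values was not tested. Rescaling without these 16 genes shifted all log2 ratios by 0.09 in WT Ex-4, -0.01 in WT FSK, 0.13 in mutant CON, 0.05 in mutant Ex-4 and -0.14 in mutant FSK. The 72 cytosolic ribosomal protein genes, which are short (median span 3.98 kb), had log2 ratios of their sums of 1.18 (1.09 to 1.27) in WT Ex-4, -0.68 (-0.80 to -0.57) in WT FSK, 1.11 (1.02 to 1.21) in mutant CON, -0.08 (-0.17 to 0.01) in mutant Ex-4 and -0.84 (-0.94 to -0.75) in mutant FSK. Of the 38 that passed, 32, 0, 32, 1 and 1 were higher in these comparisons and 0, 16, 1, 2 and 23 lower.

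Other genes of mitochondrial respiration were taken from fixed lists. Of 13 genes of the chain in mitochondrial DNA 4 were in the table, and they had 2, 1 and 3 counts in WT CON, FSK and Ex-4 and 15, 8 and 30 in the mutant; nuclei with over 1% mitochondrial reads had been removed. Cytochrome c and cytochrome c1 (2 of 3 listed genes in the table) had 24, 9 and 64 counts in WT and 27, 21 and 25 in the mutant, with log2 ratios of 1.43 (0.73 to 2.17) for WT Ex-4 and -1.45 (-2.74 to -0.30) for WT FSK. The 19 TCA cycle genes all passed the filter, and in the 5 comparisons 4, 3, 3, 0 and 7 were higher and 0, 4, 3, 0 and 4 lower. Of 22 assembly factors outside the rule that passed, 4, 2, 3, 2 and 7 were higher and 1, 10, 8, 1 and 4 lower. Of 13 transcriptional regulators of respiratory genes that passed, 4, 1, 2, 0 and 4 were higher and 3, 3, 5, 0 and 3 lower. Of 9 carriers and coupling genes that passed, 3, 0, 1, 1 and 2 were higher and 1, 4, 2, 2 and 4 lower. Of 10 ribosomal RNA linked and other nuclear noncoding genes, 8, 2, 9, 3 and 1 were higher and 0, 4, 1, 1 and 9 lower. The background shares are those given above for all genes.

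In alpha cells, which make glucagon, the 93 members summed in WT to 11.8 CP10K (10.7 to 12.8) for CON, 8.20 (7.16 to 9.36) for FSK and 11.8 (10.8 to 12.9) for Ex-4, and in the mutant to 11.96 (11.2 to 12.7), 13.8 (13.0 to 14.7) and 10.2 (9.47 to 10.9). Ribosomal RNA linked and mitochondrial genes took 3.98% of counts in WT CON, 5.38% in WT FSK, 12.5% in WT Ex-4 and 13.6% in mutant CON. The alpha cell markers summed to 116 CP10K in WT CON, 137 in WT FSK, 47.8 in WT Ex-4 and 46.3 in mutant CON, and the beta cell markers to 33.5, 17.8, 18.7 and 14.7 in the same alpha columns. The part of these shifts in the members' values was not tested. The WT FSK column was again the lowest for the members, with a log2 ratio of -0.52 (-0.75 to -0.29), while WT Ex-4 stood at 0.01 (-0.17 to 0.19) and mutant CON at 0.02 (-0.13 to 0.18), both of which lay below 0 with the length trend removed (-0.47 and -0.43). Of the 8 members that passed, 2 were higher and 2 lower in WT Ex-4 (20.2% and 22.2% of 5018 genes), 0 higher and 2 lower in WT FSK (11.9% and 16%), and 2 higher and 1 lower in mutant CON (19.5% and 27.8%). Sdha had 6 counts in WT CON and 40 in mutant CON, a log2 ratio of 1.69 (0.54 to 3.32), and Ndufs4 43 and 41, -1.02 (-1.67 to -0.37). Members under 10 kb had log2 ratios of 0.44 (0.07 to 0.81) in WT Ex-4, -0.79 (-1.36 to -0.25) in WT FSK and 0.50 (0.17 to 0.84) in mutant CON.

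In delta cells, which make somatostatin, the WT sums were 9.30 CP10K (8.33 to 10.3) for CON, 10.1 (9.20 to 11.1) for FSK and 11.5 (10.5 to 12.5) for Ex-4, and the mutant sums 10.8 (9.97 to 11.7), 13.5 (12.6 to 14.4) and 10.4 (9.61 to 11.3). The WT CON column was the lowest here, and WT FSK was not below it: the log2 ratio was 0.12 (-0.09 to 0.33). WT Ex-4 stood at 0.30 (0.10 to 0.51) and mutant CON at 0.22 (0.02 to 0.41), both of which turned negative once the length trend was removed (-0.24 and -0.37). Of the 4 members that passed, 0 were higher and 0 lower in WT Ex-4 (21% and 18.4% of 4452 genes), 2 higher and 0 lower in WT FSK (16.1% and 19.7%), and 0 higher and 1 lower in mutant CON (19.7% and 27.4%). Ndufs4 had 32 counts in WT CON, 68 in WT FSK, 33 in mutant CON and 89 in mutant FSK, with log2 ratios of 0.84 (0.22 to 1.503) for FSK in WT and 1.26 (0.68 to 1.90) in the mutant. Over all conditions and all 9 cell types of the table, the pooled sum of the members lay between 11.1 CP10K in delta cells and 12.9 in endothelial cells, with 12.02 in beta and 11.6 in alpha cells.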

How the data were processed

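Islet nuclei were sorted on DAPI, fixed and barcoded with the Parse Evercode kit. Per the labels and the study's methods, the authors ran split-pipe against mm39, removed nuclei in the lowest and highest 15% of counts or genes and those over 1% mitochondrial reads, merged and clustered with Seurat, and kept 2500 nuclei per sample. The deposited table holds natural log values, ln(1 + CP10K), in 54 columns (6 conditions by 9 cell types), each of 1 pooled group of nuclei. The files do not say which nuclei a column holds. With the log undone each column summed to 10000, and dividing by the smallest step gave whole counts for 100% of values within 0.001 (largest distance 6.39e-05).

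Members and lists were chosen with earlier results of these data known. Ratios of sums have exact conditional binomial intervals and levels exact Poisson intervals (95%). Single genes had 0.5 counts added, a filter of a mean of 20 counts over the 6 columns of a cell type, and a 1.5-fold threshold. The length trend was a lowess curve (span 0.3) on log gene span, over the genes that passed. Named genes were the 5 members with the highest mean of complexes I, III, IV and V, all of complex II, the 3 largest and 3 smallest ratios per comparison, and the paralog groups; others were chosen after their values were seen. A member that this rule names is not reported here, though sums and counts include it. Gene spans are GRCm39. Intervals were computed with scipy 1.17.1 and the lowess curve with statsmodels 0.14.6, in Python 3.11.15, and the code was tested on simulated data. Another filter (5 or 50 counts), fold (2), pseudocount, scaling, length correction and membership were the alternatives.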

Additional observations from a re-analysis of the deposited data

Results flagged for a closer look

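In these results the log2 ratio of summed levels had opposite signs in the 2 genotypes, with a counting interval of each that left out 0. There was 1 pooled column per condition and no replicate, so the difference between the genotypes was not tested. For FSK against CON in beta cells, all members stood at -0.27 in WT and 0.13 in the mutant, complex II at -0.28 and 0.34, complex III at -0.30 and 0.40, assembly factors at -0.20 and 0.52, and members of 10 to 30 kb at -0.30 and 0.12. For all members in beta cells the opposite signs did not hold under 3 alternatives: the values were 0.19 in WT and 0.60 in the mutant with the length trend removed, 0.011 and 0.22 with the median ratio of all genes set to 0, and -0.28 and -0.014 after rescaling. The other contrasts given here were not recomputed in both genotypes in this way. For FSK in alpha cells, all members stood at -0.52 in WT and 0.21 in the mutant, and members of 10 to 30 kb at -0.60 and 0.21. For Ex-4 in alpha cells, members under 10 kb stood at 0.44 in WT and -0.53 in the mutant. The mutant value includes short members that are listed at 0 in every cell type of mutant Ex-4, as 24 of the 93 members are. Uqcrq and Atp5g1 are among these, each with 6 counts in mutant CON alpha cells. The value was not recomputed without them.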

How the results depend on the processing

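No paired analysis was possible because each condition has 1 pooled column, and no replicate could be left out. Of 77 alternative values of the summed log2 ratios, 63 stayed within the counting interval of the ratio reported, 8 left it, and 6 turned a ratio whose interval left out 0 to the other sign. The 8 include 3 sign changes of ratios whose interval held 0 (mutant CON in beta cells, and WT Ex-4 and mutant CON in alpha cells). With the length trend removed, the beta sum was -0.25 for WT Ex-4, 0.19 for WT FSK, -0.41 for mutant CON and 0.60 for mutant FSK, the alpha sum -0.47 for WT Ex-4 and -0.43 for mutant CON, and the delta sum -0.24 for WT Ex-4 and -0.37 for mutant CON. With the median ratio of all genes set to 0, the beta sum was 0.087 for WT Ex-4, 0.011 for WT FSK and 0.22 for mutant FSK. Rescaled with mitochondrial genes and those linked to ribosomal RNA left out, it was 0.30 for WT Ex-4, 0.086 for mutant CON and -0.014 for mutant FSK. The causes were not tested.

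Of 220 alternative counts of members past the fold, 86 left a range of 1.5 times the count reported. Below, counts are given as higher and lower members, with the share of all genes that passed in parentheses for other filters. With a mean of 5 counts, 79 members passed in beta cells, and the counts were 23 and 3 for WT Ex-4 (30.6% and 12.6%), 0 and 40 for WT FSK (7.4% and 38.8%), 18 and 18 for mutant CON (29.2% and 21%), 10 and 18 for mutant Ex-4 (5.47% and 13.3%) and 21 and 26 for mutant FSK (21.1% and 35.5%). Of 44 in alpha cells they were 10 and 11 for WT Ex-4 (27.3% and 21.7%), 3 and 13 for WT FSK (15.5% and 27%) and 10 and 9 for mutant CON (25.2% and 26.2%), and of 33 in delta cells 12 and 3 (31.1% and 16.5%), 6 and 9 (17.1% and 30.1%), and 7 and 6 (28.3% and 23.8%). With a mean of 50 counts, 19 members passed in beta cells, and the counts were 4 and 1 for WT Ex-4 (19.4% and 14.9%), 0 and 3 for WT FSK (7.52% and 20%), 3 and 6 for mutant CON (18.2% and 26.6%), 0 and 0 for mutant Ex-4 (1.53% and 1.85%) and 7 and 4 for mutant FSK (26.1% and 24.1%). In alpha and delta cells 0 members passed that filter, so that their counts of 0 say nothing. At the mean of 5 counts, members listed at 0 in every cell type of mutant Ex-4 could enter as lower there. Ndufa5 and Ndufa8 are among them, with 6 and 7 counts in mutant CON beta cells. Such a 0 is no limit on the level, so the 18 lower members for mutant Ex-4 are not all measured drops. Past 2-fold, the beta counts were 2 and 0 for WT Ex-4, 5 lower for WT FSK, 2 lower for mutant CON, 0 and 0 for mutant Ex-4 and 6 and 3 for mutant FSK. At that fold WT Ex-4 in alpha cells had 1 and 0, and the delta counts went to 0. No share of all genes past 2-fold is given, so these counts cannot be read against a background. On the scale of log2(CP10K + 1) every count was 0, where most members lie far below 1 CP10K.

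Rescaled, 4 members were lower for mutant CON and 2 higher for mutant Ex-4 in beta cells, 4 were higher and 0 lower for WT Ex-4 in alpha cells, and 1 was higher for WT Ex-4 and 0 lower for mutant CON in delta cells. With the median set to 0, the beta counts were 5 and 4 for WT Ex-4, 3 and 7 for WT FSK and 2 higher for mutant Ex-4, and 0 were lower for mutant CON in delta cells. With the length trend removed, they were 1 and 4 for WT Ex-4, 5 and 1 for WT FSK, 1 higher for mutant CON, 2 higher for mutant Ex-4 and 2 lower for mutant FSK, 1 and 1 for WT Ex-4 in alpha cells and 2 lower for WT Ex-4 in delta cells. No share of all genes is given for the rescaled, median and length trend counts, so they cannot be read against a background. Without assembly factors 0 were lower for WT Ex-4. The sets of members with counts in all 6 conditions and without the second row of Atp5o, both chosen after seeing the data, gave no such change. In the shallowest column 1 count was worth 0.00522 CP10K in beta, 0.0371 in alpha and 0.0276 in delta cells.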
